A study of Mus musculus with 18 samples.

Results

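The troponin genes of fast, slow, and cardiac muscle were followed in the mouse whisker pad after its motor nerve was cut. The genes were taken from a fixed list of 7 names, Tnni2 and Tnnc2 for the fast forms, Tnnt1 and Tnni1 for the slow forms, Tnnc1 for the form that slow fibers and heart share, and Tnnt2 and Tnni3 for the cardiac forms. They are 7 of the 35150 genes whose level could be summed over transcripts, and all 7 passed the minimum for testing in each comparison. The fast troponin T gene, Tnnt3, was used only as the remainder of its family and as the partner in ratios.

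Troponin sits on the thin filament of striated muscle as a complex of 3 subunits. Troponin C (TnnC) binds calcium, troponin I (TnnI) holds back the interaction of actin and myosin until calcium arrives, and troponin T (TnnT) ties the complex to tropomyosin. Each subunit comes from a small gene family whose members are used in different fibers, and the cardiac TnnT gene is also known from developing skeletal muscle.

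RNA was measured in punches of skin with its muscle, taken at the rostral whisker pad of 9 mice, with 3 mice each at 1, 3, and 7 days after surgery. On the right side 2 branches of the facial nerve, the buccal and the superior marginal, were transected (denervated). On the left side of the same mouse the skin was opened and closed again and the nerve was spared (sham), so every group of 3 samples has its control group in the same 3 animals, and an effect of the lesion cannot be told apart from one of the right against the left side. All mice had surgery and anesthesia on both sides. The mice were adults. The study used both sexes, but the sex of these 9 mice and the mouse line they came from are not stated in the sources used here. Levels are in TPM, a unit of transcript abundance that takes account of transcript length and of depth, which the authors normalized between samples.

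The depth was estimated at between 11500000 and 35600000 reads, and the median sample had 16000000. Skeletal muscle markers were abundant in all samples, and 6 heart markers together reached only 1.32 to 3.58 TPM, with Myl7, a light chain of atrial myosin, at 0 in 7 samples and the cardiac transcription factor Nkx2-5 at 0 in 3. Replicate 1 of day 1 held little muscle on either side: 10 fiber markers summed to 4337 TPM on its sham side, where the highest sham side of that day reached 23030. The denervated side of replicate 1 at day 7 held 117692 TPM of the hemoglobin genes Hbb-bs and Hba-a1, against 37848 in the next highest sample. Markers of satellite cells and myoblasts (Pax7, Myf5, Myod1, and Myog) summed to 10.7 to 18.5 TPM on the sham side and 113 to 134 TPM on the denervated side at day 7. Pax7 reached at most 0.285 TPM and Myf5 at most 1.53 TPM in any sample, so this difference lay in Myod1 and Myog. It is not a measure of the number of satellite cells. In punches of mixed tissue, fewer muscle cells and less RNA per muscle cell cannot be told apart.

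The 7 genes lie on 4 chromosomes, and most have another troponin gene for a neighbor. On chromosome 7 of build GRCm38, Tnnt1 (4504570 to 4516382, minus strand) and Tnni3 (4518305 to 4524229, minus strand) are separated by 1922 bases, and Tnni2 (142441808 to 142444410, plus strand) lies 54425 bases from Tnnt3. On chromosome 1, Tnni1 (135779434 to 135810989) and Tnnt2 (135836354 to 135852260), both on the plus strand, lie 25364 bases apart. Tnnc2 (chromosome 2, 164777161 to 164779967, minus strand) and Tnnc1 (chromosome 14, 31208312 to 31211729, plus strand) have no such neighbor.

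RefSeq start sites were listed for 6 of the 7 genes. The windows before these starts, trimmed to leave out the first exon of a protein-coding transcript that reached into them, are shown for the gene that passed the test of denervation at day 7 (Tnnt1), for the other slow-fiber gene of the pair (Tnni1), and for the fast gene that was lower in all 3 mice of that day (Tnnc2). Each is read 5′ to 3′ on the strand of the gene. Capitals mark the letters CANNTG, on either strand, which make up an E-box, the kind of sequence that muscle regulatory factors such as MyoD are known to bind. The stretches are chr7:4516005-4516225 (minus strand), chr1:135799171-135799401 (plus strand), and chr2:164779742-164779984 (minus strand). The stretches of Tnnt1 and Tnni1 lie within longer protein-coding transcripts of these genes (Tnnt1-207 and Tnni1-202), and that of Tnnc2 holds exon bases of the noncoding transcript Tnnc2-202.
Tnnt1: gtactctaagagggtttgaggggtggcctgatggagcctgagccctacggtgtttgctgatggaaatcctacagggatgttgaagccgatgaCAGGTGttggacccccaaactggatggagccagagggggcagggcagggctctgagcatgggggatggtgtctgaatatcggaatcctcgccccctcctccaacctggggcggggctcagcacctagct
Tnni1: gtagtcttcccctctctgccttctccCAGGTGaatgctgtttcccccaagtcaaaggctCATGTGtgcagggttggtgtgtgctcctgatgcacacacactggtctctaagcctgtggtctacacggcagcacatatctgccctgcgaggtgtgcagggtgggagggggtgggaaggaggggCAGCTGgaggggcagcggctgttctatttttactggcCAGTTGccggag
Tnnc2: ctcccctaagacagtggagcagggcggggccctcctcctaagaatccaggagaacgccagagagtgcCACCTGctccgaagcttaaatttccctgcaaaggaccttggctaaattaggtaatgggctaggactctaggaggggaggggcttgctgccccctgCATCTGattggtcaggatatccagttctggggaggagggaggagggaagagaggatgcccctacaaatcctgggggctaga
There was 1 such stretch before Tnnt1, 4 before Tnni1, and 2 before Tnnc2, and 66.2% of 32851 windows of 250 bases before RefSeq starts held at least 1. The letters CAGCTG, a palindromic E-box that is counted among the CANNTG stretches, were found before Tnni1 and before 1 of 2 starts of Tnnt2 and occur in 13% of all windows. The letters CATTCC, an M-CAT element, were found before Tnnc1 and before 1 of 2 starts of Tnnt2 and occur in 12.6% of all windows. No MEF2 site (2.9% of all windows) and no CArG box (1.5%) was found in the windows of these 6 genes. These are matches of letters only, searched on both strands.

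The fast forms made up nearly all troponin mRNA on both sides of the face. In the 9 sham samples, Tnnc2 ran from 1262 to 6744 TPM with a median of 4129 TPM, and Tnni2 from 1090 to 5174 TPM with a median of 3977 TPM. The other 5 genes reached at most 27.1 TPM in any sham sample. Tnni3 had a median of 15.3 TPM, Tnnt2 14.6 TPM, Tnnt1 13.6 TPM, Tnni1 5.84 TPM, and Tnnc1 0.972 TPM. The ranges of Tnni3, Tnnt2, and Tnnt1 overlapped, and Tnni3 was above Tnnt2 in only 6 of 9 sham samples and Tnnt2 above Tnnt1 in 3 of 9. Tnni1 was above Tnnc1 in 9 of 9. TPM are scaled for transcript length, so these levels can be set side by side between genes, with 2 limits. Removal of duplicate reads may have lowered the abundant fast forms, which was not tested. The sums also count transcripts with a retained intron, such as Tnni3-202 with 29.5% of Tnni3.

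On the denervated side 2 places in this order were different. Tnni2 (median 4332 TPM) was above Tnnc2 (median 3595 TPM) in 6 of 9 denervated samples, while Tnnc2 was above Tnni2 in 8 of 9 sham samples. Tnnt1, with the lowest median of the 3 genes of the middle range on the sham side, had the highest on the denervated side, 21.5 TPM. It was above Tnni3 in 5 of 9 denervated samples, so that the order within this range is not separated from the spread between samples.

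As a share of its family, each fast form held at least 99.0% in the mean of every group. Tnnc2 made up at least 99.8% of TnnC, Tnni2 99.0% to 99.5% of TnnI, and Tnnt3 99.0% to 99.5% of TnnT. The slow and cardiac forms were therefore minor on both sides at all days, and the differences below concern this minor fraction or the balance between fast forms.

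**Figure D1:**
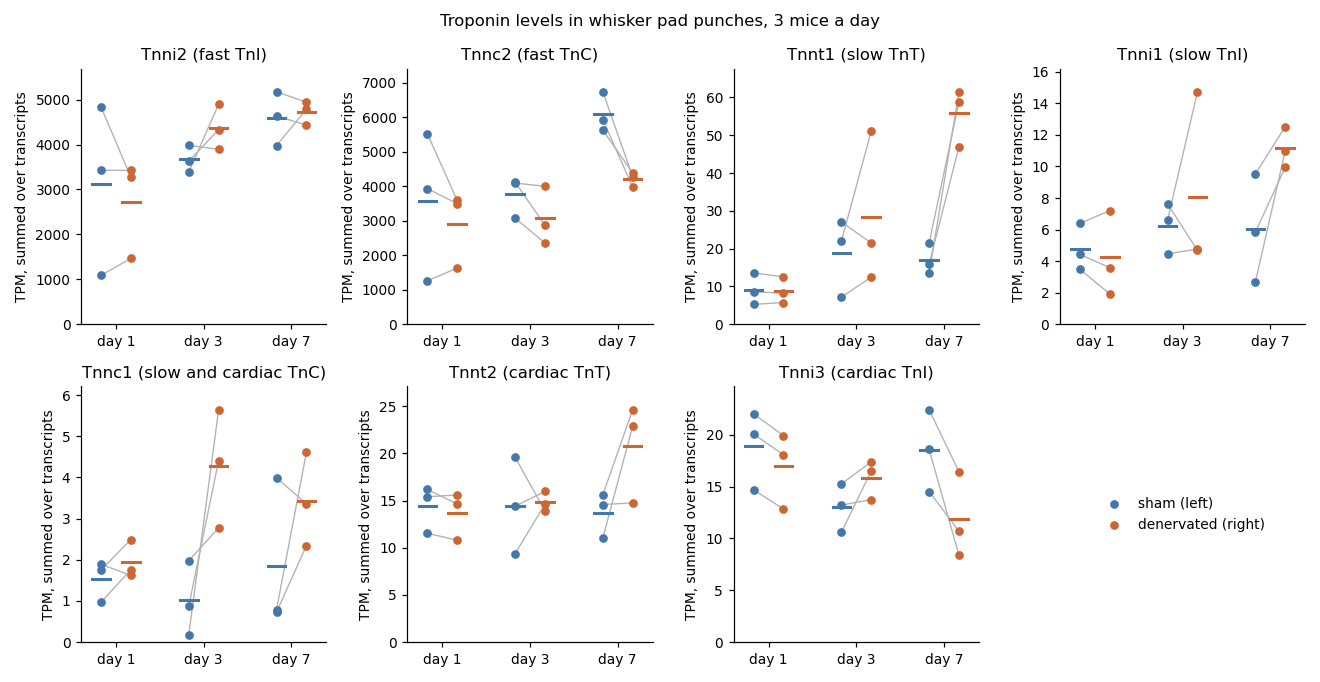
Summed TPM (vertical axis, linear, from 0) of the 7 troponin genes by day, with blue points for the sham side and orange points for the denervated side of 3 mice a day, gray lines joining the sides of a mouse, and bars for means. The 3 denervated samples of day 7 sit between 46.9 and 61.5 TPM for Tnnt1, above all sham samples of that day, and between 3977 and 4391 TPM for Tnnc2, below them.

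Tnnt1, the slow skeletal TnnT, was the gene of the 7 with a change that passed the test. At day 7 its sham levels were 15.9, 21.4, and 13.5 TPM, and its denervated levels in the same mice were 46.9, 58.9, and 61.5 TPM. All 3 denervated samples were above all 3 sham samples, and the sides of each mouse differed by 1.44 to 2.15 on the log2 scale. Tnnt1 rose 3.26-fold, with a log2 fold change of 1.71 ± 0.20 (SE, n = 3 mice, 95% interval 1.24 to 2.17) and an adjusted p = 0.0109 (limma, Benjamini-Hochberg over 15081 genes). All fold changes of a single day are on the log2(TPM + 0.5) scale and rest on 3 mice. The main fit had no term for the mouse, so its SEs, intervals, and p values do not use the pairing of the sides. It was the 1 call among the 7 troponins at day 7, when 1.53% of all genes tested were called. With any 1 of the 3 mice left out the fold change stayed between 1.49 and 1.84 and the adjusted p was 0.205, 0.121, and 0.0639 without replicates 1, 2, and 3. In 1 fit of all 18 samples the adjusted p was 0.141, and over all alternatives it ran from 1.9e-05 to 0.205 (limma, Benjamini-Hochberg).

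At day 1 there was no such separation of Tnnt1. The sham levels were 5.27, 13.6, and 8.57 TPM and the denervated levels were 5.75, 12.5, and 8.24 TPM. The mice differed from each other by more than the sides of any mouse did. The log2 fold change was −0.02 ± 0.40 (SE, n = 3, without a mouse term), and the within-mouse differences had an SD of 0.12.

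At day 3 the mice did not share a direction. Tnnt1 was 27.1, 7.15, and 21.96 TPM on the sham side and 21.5, 12.5, and 51.1 TPM on the denervated side. Tnnt1 was lower on the denervated side in replicate 1 and higher in the other two mice, and the groups overlapped. The log2 fold change was 0.55 ± 0.65 (SE, n = 3), with an adjusted p = 0.771 (limma, Benjamini-Hochberg). It was 0.22 without replicate 3, 0.98 without replicate 1, and 1.25 with the main transcript of the gene. Tested directly, the effect of denervation at day 7 exceeded that at day 1 by 1.72 ± 0.73 (SE, log2) and that at day 3 by 1.16 ± 0.73. Neither difference passed the threshold (adjusted p = 0.665 and 0.813, limma). Nor did they with the mouse as a block (adjusted p = 0.148 and 0.306, limma, 0.000931 and 0.00984 before adjustment). With main transcripts the difference of day 7 from day 3 was 0.031. The rise at day 7 is therefore not shown to differ from the other days. None of the 7 troponins was called in these differences between days 7 and 1 and days 7 and 3, for which 0.163% and 0% of 14757 genes were called (1054 and 1013 genes at an unadjusted p under 0.05).

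Several transcripts of Tnnt1 were behind the summed level. Tnnt1-206, which holds 49.4% of the mean level, was at 9.06, 13.3, and 10.3 TPM on the sham side and 19.4, 30.6, and 32.3 TPM on the denervated side at day 7. Tnnt1-203 was at 1.64, 2.08, and 0 TPM on the sham side and 7.26, 11.9, and 9.33 TPM on the denervated side. For both transcripts the 2 groups were separate. With each gene represented by its main transcript alone, the log2 fold change of Tnnt1 at day 7 was 1.28 and no longer passed (adjusted p = 0.0817, limma). An estimated 123 to 631 reads a sample stood behind the gene at day 7.

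Tnni1, the slow skeletal TnnI, did not pass the test on any day. At day 7 it was at 2.68, 5.84, and 9.53 TPM on the sham side and 10.98, 9.94, and 12.5 TPM on the denervated side. The denervated samples were above all sham samples, but the sham samples were spread widely and replicate 3 differed by only 0.38 between its sides. On the log2 scale the fold change was 0.98 ± 0.39 (SE), with an adjusted p = 0.382 (limma, Benjamini-Hochberg, 0.0407 before adjustment). The value was 0.55 without replicate 1 and 1.29 without replicate 3. It was 3.22 with the main transcript of the gene, which passed the minimum for testing through the denervated side. Over the alternatives the adjusted p ran from 0.0526 to 0.854 (limma). At days 1 and 3 the log2 fold changes were −0.28 ± 0.44 and 0.18 ± 0.45, and at each of these days the differences of the mice had both signs.

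Beneath the summed level of Tnni1, 2 of its transcripts had different values, and these were singled out after their values were seen. Tnni1-206 has 9 exons and Tnni1-207 has 10, and they are 1038 and 1105 bases long. At day 7, Tnni1-206 was at 0.00105, 4.20, and 6.28 TPM on the sham side and was listed at 0 in all 3 denervated samples. Tnni1-207 was at 2.17, 0.114, and 0 TPM on the sham side and 7.51, 7.11, and 10.4 TPM on the denervated side. In replicates 2 and 3 the sham side thus held mostly the shorter transcript and the denervated side the longer one. At day 3, replicates 1 and 3 also had Tnni1-206 at 0 and Tnni1-207 at 2.13 and 12.7 TPM on the denervated side, while replicate 2 had 3.34 and 0 TPM. The whole gene rested on 30 to 332 estimated reads a sample, and the division of reads between such similar transcripts is a statistical estimate. Tnni1-207 is also the main transcript of the gene, and in a fit of the main transcript of each gene it had log2 fold changes of 1.82 at day 3 (adjusted p = 0.574, limma) and 3.22 at day 7 (adjusted p = 0.0923, limma). At both days it passed the minimum for testing only with the help of the denervated side, and its mean sham levels were 0.358 and 0.761 TPM. The difference between the 2 transcripts was not tested.

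**Figure D2:**
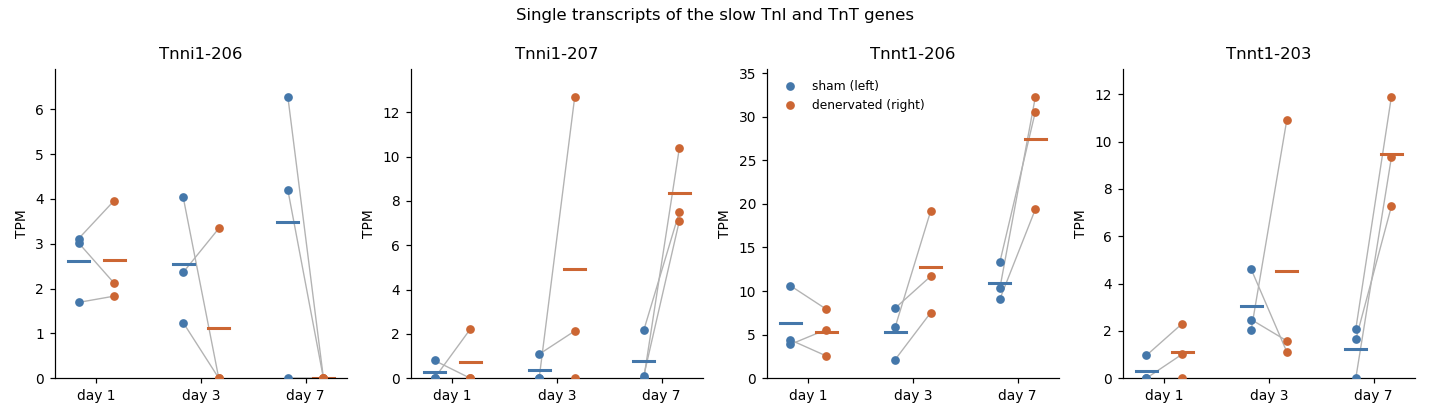
TPM (vertical axes, linear, from 0) of 2 transcripts of Tnni1 and 2 of Tnnt1 by day, with sham points in blue, denervated points in orange, lines joining the sides of a mouse, and bars for means of 3 mice. At day 7, Tnni1-206 is at 0 in the 3 denervated samples while Tnni1-207, Tnnt1-206, and Tnnt1-203 are higher there than in any sham sample of the day.

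Tnnc1, the TnnC of slow fibers and heart, was the scarcest of the 7 genes. At day 3 it was at 0.882, 1.98, and 0.185 TPM on the sham side and 4.41, 2.78, and 5.65 TPM on the denervated side. All 3 denervated samples were above the sham samples, and only 1 sham sample reached 1 TPM, so that the gene passed the minimum for testing through the denervated side. Its log2 fold change was 1.80 ± 0.49 (SE), on a scale of log2(TPM + 0.5) that understates the change of a gene this low, with an adjusted p = 0.169 (limma, Benjamini-Hochberg, 0.0094 before adjustment). It was 1.12 without replicate 3 and 2.50 without replicate 2. No troponin was called at day 3, when 1.45% of all genes tested were. At day 7 the sham levels of Tnnc1 were 0.730, 3.99, and 0.793 TPM and the denervated levels 2.34, 3.36, and 4.61 TPM. Replicate 2 was lower on the denervated side, and the log2 fold change was 0.99 ± 0.53, or 0.49 without replicate 3 and 1.595 without replicate 2. Over all days Tnnc1 was higher on the denervated side in 7 of 9 mice (log2 fold change 1.03 ± 0.31, adjusted p = 0.089, limma). Here too it passed the minimum through the denervated side, with a sham median of 0.972 TPM and no denervated sample below 1.62 TPM. The retained intron transcript Tnnc1-201 held 33.1% of its mean level. With the main transcript, a coding one, the log2 fold change was 2.19 at day 3 (adjusted p = 0.0894, limma) and 0.75 at day 7 (adjusted p = 0.753, limma). At day 3 this transcript passed the minimum through the denervated side alone, with sham values of 0.223, 0.761, and 0 TPM. At day 7 the gene and this transcript also needed the denervated side to pass. An estimated 1 to 84 reads a sample, with a median of 16.5, stood behind the values of Tnnc1.

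Tnnt2, the cardiac TnnT, ran from 9.38 to 24.6 TPM over all samples, while heart markers were near 0. At day 7 it was at 14.6, 15.6, and 11.01 TPM on the sham side and 14.8, 24.6, and 22.9 TPM on the denervated side. Replicate 1 had nearly the same level on both sides, and the groups overlapped. Its log2 fold change was 0.56 ± 0.23 (SE), with an adjusted p = 0.393 (limma, Benjamini-Hochberg, 0.0445 before adjustment). With the main transcript alone the sign turned, to −0.40. At days 1 and 3 the log2 fold changes were −0.07 ± 0.19 and 0.09 ± 0.25. In the difference between days 3 and 1, 0 of 7 troponins were called, and 0.122% of all genes.

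Tnni3, the cardiac TnnI, had the opposite sign at day 7. It was at 18.6, 22.4, and 14.5 TPM on the sham side and 8.38, 16.4, and 10.7 TPM on the denervated side. Every mouse was lower on the denervated side, and the groups overlapped because the highest denervated sample was above the lowest sham sample. On the log2 scale this was a fold change of −0.65 ± 0.27 (SE), with an adjusted p = 0.393 (limma, Benjamini-Hochberg, 0.045 before adjustment). Of the mean Tnni3 level, 29.5% came from Tnni3-202, which is annotated as a retained intron, and 34.4% from the coding transcript Tnni3-201. At day 7, Tnni3-202 averaged 6.68 ± 2.20 TPM on the sham side and 3.70 ± 3.56 TPM (SD, n = 3) on the denervated side, and Tnni3-201 5.61 ± 1.38 and 4.31 ± 1.53 TPM.

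**Figure D3:**
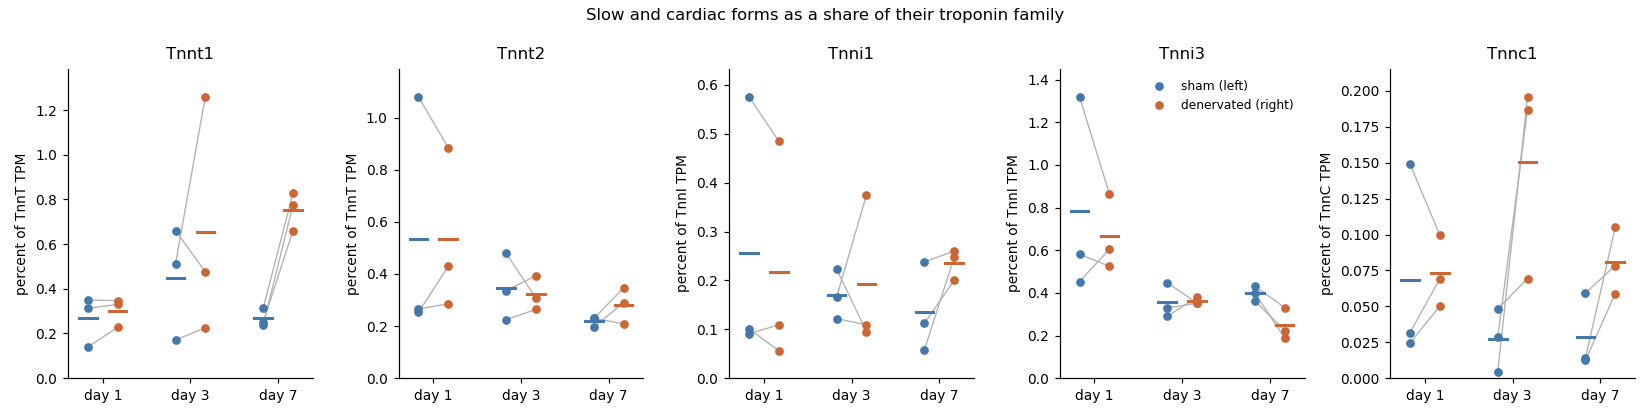
Share of the summed TPM of its family (percent, linear axes from 0) held by each slow or cardiac form, by day, for the sham (blue) and denervated (orange) side of 3 mice a day, with bars for means. At day 7 the Tnnt1 share is 0.268% on the sham and 0.755% on the denervated side in the mean, and no other form has a mean share above 0.398% there.

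The same genes can be read as shares of their families. Tnnt1 held 0.268% ± 0.040 of TnnT on the sham side at day 7 and 0.755% ± 0.086 (SD, n = 3) on the denervated side, higher in 3 of 3 mice. Tnnt2, the other minor TnnT, held 0.218% ± 0.019 and 0.281% ± 0.070. The 2 genes had nearly equal levels on the sham side, with Tnnt1 at 1.09, 1.37, and 1.22 times Tnnt2, and were apart on the denervated side, with Tnnt1 at 3.18, 2.39, and 2.69 times Tnnt2. In TnnI the differences of the 2 minor forms had opposite signs at day 7, with Tnni1 at 0.136% ± 0.093 and 0.236% ± 0.032 and Tnni3 at 0.398% ± 0.034 and 0.247% ± 0.074. Tnnc1 held 0.029% ± 0.027 of TnnC on the sham side at day 3 and 0.151% ± 0.071 on the denervated side. At day 1 no share differed between the sides by more than its SD over mice. These shares were not tested.

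Tnnc2, the fast TnnC, was lower on the denervated side at day 7. Its sham levels were 5939, 6744, and 5630 TPM and its denervated levels 3977, 4279, and 4391 TPM. The groups did not overlap, and the sides of the 3 mice differed by −0.66 to −0.36. This gave a log2 fold change of −0.53 ± 0.13 (SE, 95% interval −0.84 to −0.23), with an adjusted p = 0.135 (limma, Benjamini-Hochberg, 0.00458 before adjustment). At that day the 10 fiber markers summed to 25170 to 28590 TPM on the sham side and 23250 to 27650 TPM on the denervated side. With the samples scaled to these markers, the log2 fold changes were −0.53 for Tnnc2 (adjusted p = 0.328, limma) and 1.69 for Tnnt1 (adjusted p = 0.00543, limma). The markers were not all steady, with Neb at 1.14 (called) and Atp2a1 at −0.67 (not called) among them, so this scaling is not a clean measure of the amount of muscle. At day 3 the 3 mice were also lower in Tnnc2, by −0.52 to −0.03, and at day 1 the mice differed in direction. Over all days Tnnc2 was lower in 8 of 9 mice (log2 fold change −0.33 ± 0.23, adjusted p = 0.598, limma), and 0 of 7 troponins were called in that comparison, in which 3.1% of all genes were. Without replicate 1 of day 1, whose samples held little muscle, it was −0.42 with an adjusted p = 0.0494 (limma), the lowest of a range that reached 1.0 over the alternatives.

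Tnni2, the fast TnnI, did not share this difference. At day 7 it was at 4636, 5174, and 3977 TPM on the sham side and 4432, 4943, and 4786 TPM on the denervated side. The groups overlapped and the log2 fold change was 0.05 ± 0.14 (SE, n = 3, 95% interval −0.29 to 0.38). At day 3 it was 0.25 ± 0.16 and at day 1 −0.05 ± 0.62. The wide error at day 1 goes with levels of 1090 to 4836 TPM among the 3 sham samples. At day 1, 0 of 7 troponins and 0% of 14776 genes were called (limma), and 634 genes had an unadjusted p under 0.05.

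**Figure D4:**
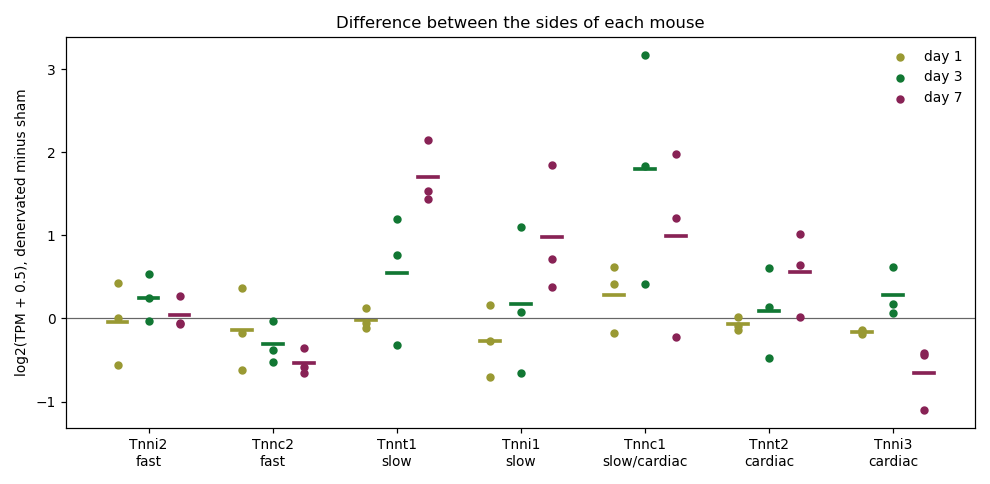
Denervated minus sham difference within each mouse on the log2(TPM + 0.5) scale (vertical axis), with 1 point per mouse and bars for means, colored by day. Tnnt1 and Tnnc2 have all 3 mice of day 7 on the same side of 0, at 1.44 to 2.15 and −0.66 to −0.36. So do Tnni1 (0.38 to 1.85), Tnnt2 (0.02 to 1.02), and Tnni3 (−1.10 to −0.42). The day 1 points of Tnnt1 and of Tnnc2 lie on both sides of 0.

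Ratios between the fast subunits were taken within each sample. They were chosen after the levels had been seen, and no test was made. On the sham side at day 1 the ratio of Tnni2 to Tnnc2 was 0.864, 0.872, and 0.875, while the level of Tnni2 ran from 1090 to 4836 TPM in the same 3 samples. On the denervated side it was 0.899, 0.977, and 0.910. The ratio was higher on the denervated side in all 3 mice, by 0.09 ± 0.06 (SD, log2).

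At days 3 and 7 the ratio of the sides was further apart. At day 3 the ratio of Tnni2 to Tnnc2 was 1.18, 0.828, and 0.965 on the sham side and 1.84, 1.22, and 1.36 on the denervated side. At day 7 it was 0.781, 0.767, and 0.706 on the sham side and 1.11, 1.16, and 1.09 on the denervated side. The denervated samples were above the sham samples on both days, and the mean log2 differences were 0.56 ± 0.07 and 0.58 ± 0.06 (SD, n = 3 mice each). Tnnt3 to Tnnc2 had log2 differences of −0.13 ± 0.10, 0.47 ± 0.06, and 0.76 ± 0.07 at days 1, 3, and 7, and Tnnt3 itself was at 6298, 6786, and 5595 TPM on the sham and 7036, 7022, and 7837 TPM on the denervated side at day 7. All of these ratios share the denominator Tnnc2, whose exons overlap those of Ube2c, a gene on the opposite strand, in 592 of 800 bases. The coding transcript Ube2c-201 was listed at 1.11 to 4.57 TPM, far below Tnnc2. No other Ube2c transcript was examined, and the division of reads between the genes was not tested.

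**Figure D5:**
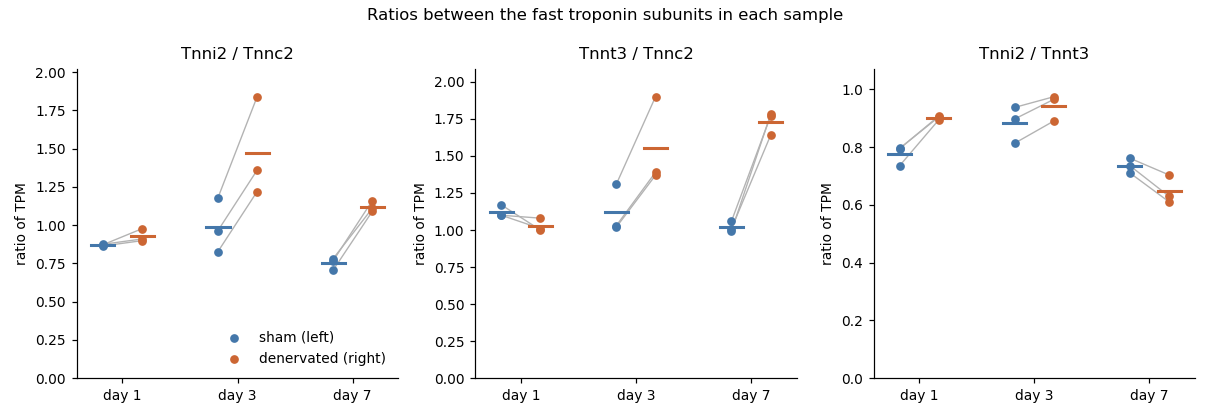
Ratio of TPM between fast troponin subunits in each sample (vertical axis, linear, from 0) by day, with sham points in blue, denervated points in orange, lines joining the sides of a mouse, and bars for means. Tnni2 to Tnnc2 is higher on the denervated side of all mice, from a mean of 0.751 to 1.12 at day 7, and Tnni2 to Tnnt3 is higher at day 1 and lower at day 7.

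Across the 9 mice, the differences of Tnni2 and Tnnc2 between the sides had a correlation of 0.73, and those of Tnnt1 with Tnnt2 and Tnni1 of 0.80 and 0.62. Those of Tnni3 had correlations of −0.62 with Tnni1 and −0.61 with Tnnt1, and those of Tnnc2 and Tnni1 of −0.47. Among 2956 genes outside the family whose differences varied enough (an SD of at least 0.5), the pattern of Tnnt1 was most like that of Hhipl1 (r = 0.95), Napb (0.94), and Tceal5 (0.94), and the pattern of Tnnc2 most like that of Pde4d (0.92), Ckm, the muscle creatine kinase (0.91), and Gm11361 (0.89). For Tnni2 the nearest were Jph1, Tspan8, and Mstn (0.87 each), for Tnni1 Apod, B230217C12Rik, and Zfp951 (0.92 each), and for Tnnc1 Igsf11 (0.90), Thrsp (0.87), and Gm9392 (0.79). For Tnni3 they included Ccdc24 (0.94) and Mpp3 (0.90), and for Tnnt2 they were Gm12424 (0.98), Gm6358 (0.94), and Zap70 (0.91). These describe 9 points that share libraries and days.

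Genes that work beside troponin gave a background for these values. Over all genes tested at day 7, 1.01% were called higher and 0.511% lower, and the median log2 fold change was 0.04. Of 17 thin filament partners at that day, 2 rose and 0 fell, and their median was 0.16. Those 2 were Neb, the giant nebulin that spans the thin filament (366 ± 39.4 to 809 ± 84.3 TPM, SD, log2 1.14), and Lmod2, a leiomodin that nucleates actin (52.1 ± 17.4 to 135 ± 5.72 TPM, log2 1.42). Actc1, cardiac actin, was at 213 ± 110 and 51.2 ± 16.3 TPM, with an adjusted p = 0.0773 in limma and 0.00802 with the mouse as a block. No thin filament partner was called at days 1 or 3, and with the block Actc1 was at day 3 (log2 −2.56, adjusted p = 0.0393, limma).

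Of 12 slow-fiber genes, 10 could be tested at day 7, with a median of 0.24 against 0.04 over all genes. Among them 1 rose and 1 fell, when 1.53% of all genes tested were called. Pln, phospholamban, rose from 4.01 ± 0.39 to 28.4 ± 7.82 TPM (log2 2.65), and Sln, sarcolipin, fell from 51.7 ± 8.63 to 7.07 ± 3.05 TPM (log2 −2.86). Both are small inhibitors of the calcium pump of the sarcoplasmic reticulum. The other 8 did not pass, although Csrp3, a protein of the Z disk, did with the mouse as a block (log2 1.13, adjusted p = 0.0905 without and 0.032 with the block, limma). No slow-fiber gene was called at days 1 or 3. Myh7 and Myl3 were below the minimum for testing at every day, and Myl2 passed it at day 7 only, at 1.42 and 1.59 TPM in the mean.

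Of 12 fast-fiber genes, 1 rose and 2 fell at day 3 and at day 7, with a median of −0.32 at day 7. Over all genes tested, 1.45% were called at day 3 and 1.53% at day 7. Actn3, the actinin of fast fibers, rose from 286 ± 69.8 to 879 ± 65.6 TPM at day 7 (log2 1.64). Myoz1, a Z disk protein that binds calcineurin, fell from 552 ± 9.84 to 262 ± 47.6 TPM (log2 −1.09), and Eno3, the muscle enolase, from 1624 ± 84.8 to 774 ± 192 TPM (log2 −1.10). The same 3 genes passed at day 3, with log2 fold changes of 2.61, −1.45, and −1.15, the last not with the mouse as a block (adjusted p = 0.0518, limma). With the block at day 7, 4 fast-fiber genes had fallen, Pvalb, the calcium buffer parvalbumin (log2 −0.68, adjusted p = 0.0379), and Mybpc2, fast myosin-binding protein C (−0.79, adjusted p = 0.0491), being the other two. In that fit 328 of all 15081 genes tested were called in either direction.

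Of 12 embryonic and cardiac sarcomere genes, 7 could be tested at day 7, and 4 of them rose, with a median of 1.55. Over all genes tested at that day, 1.01% were called higher. Ankrd1 rose from 8.82 ± 4.27 to 163 ± 15.7 TPM (log2 4.26) and Ankrd2 from 40.6 ± 8.38 to 371 ± 49.1 TPM (log2 3.19), both ankyrin repeat proteins that respond to stretch. Myl4, a light chain of embryonic and atrial myosin, rose from 16.9 ± 5.32 to 79.4 ± 10.2 TPM (log2 2.23), and Hspb7, a small heat shock protein, from 95.1 ± 11.3 to 279 ± 13.6 TPM (log2 1.55). At day 3 Ankrd1 was called (log2 5.07), and with the mouse as a block Ankrd2 also rose (log2 3.93, adjusted p = 0.0325, limma) and Actc1, which is in both lists, fell. None of 12 calcium-binding relatives and calcineurin targets was called at day 7, and at day 3 Calm3, a calmodulin gene, rose from 58.1 ± 7.96 to 95.5 ± 4.65 TPM (log2 0.72, adjusted p = 0.0468, and 0.0549 with the block, limma). The sum of the satellite cell and myoblast markers given above, carried by Myod1 and Myog, moved with the side at each day as well. The part of these markers in the values here was not tested.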

How the data were processed

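RNA-seq was read from 18 punches, both sides of 9 mice. The authors used TruSeq libraries on a NextSeq 500, base calling with bcl2fastq 2.17.1.14, removal of duplicate reads with ParDRe, trimming with Fastp, and pseudoalignment to GRCm38 cDNA with kallisto 0.43.1, loaded into sleuth. Duplicates were removed by read sequence, and what this took from short, abundant transcripts such as the fast troponins was not tested. The deposited values are a signal, TPM normalized between samples by the authors: sample sums ran from 833186 to 1143839, and 10 of 18 were above the sum of plain TPM, for which the tests had been chosen. No column was left unused.

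Of 113194 transcripts, 98.46% matched GENCODE M21 (99.48% of the values). Depth was read from low values of transcripts of at least 3000 bases, 67.5% to 83.8% of which lay within 0.1 of a whole read (20% if spread evenly). It is an estimate that covers counting error only. Read numbers per gene come from it.

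Genes were tested on log2(TPM + 0.5) with limma 3.58.1 (R 4.3.3, moderated test with a trend, two-sided) if they had at least 1 TPM in at least 47% of the samples compared. P values were adjusted by Benjamini-Hochberg over all genes tested, with a threshold of 0.05. Days were fitted alone (6 samples), together with a term for the day, and as interactions in 18 samples. The test was tried on simulated data. Labels pair the sides by mouse, and sides of a mouse deviated together (correlations 0.13 to 0.51). The mouse block was an alternative, as were pseudocounts of 0.1 and 1, no TPM minimum, median-of-ratios or muscle marker scaling, main transcripts, 1 fit of all 18 samples, and leaving out each mouse. Members, lists, and tests were chosen with earlier results of these data known. Named genes are the troponins, listed genes called at days 3 or 7 (at most 6 a list), and the 3 genes most like each troponin (a part of these is not reported here), and genes called only with the block were added after their values were seen. Motifs were searched in RefSeq windows of GRCm38.p6. Python 3.11.15 with numpy 2.4.6, pandas 2.3.3, and matplotlib 3.10.9 served for other steps.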

Additional observations from a re-analysis of the deposited data

Results flagged for a closer look

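Tnni3, cardiac TnnI, differed between days in the direction of its denervated minus sham difference, which was singled out because the 3 mice of a day moved one way and the 3 mice of another day the opposite way. At day 1 it was lower on the denervated side in 3 of 3 mice, by −0.19 to −0.14 on the log2 scale, at day 3 higher in 3 of 3, by 0.06 to 0.62, and at day 7 lower in 3 of 3, by −1.10 to −0.42. The effect at day 3 exceeded that at day 1 by 0.442 (SE 0.343), with an adjusted p = 0.778 (limma, Benjamini-Hochberg), or 0.394 with the mouse as a block. The effect at day 7 was below that at day 3, with a difference of −0.939 (SE 0.343), an unadjusted p = 0.0156 in limma, and an adjusted p = 0.652, or 0.25 with the block. With main transcripts the differences were 0.164 and −0.473. Neither difference passed. No gene was called by limma in the comparison of day 7 with day 3 (0% of 14757, and 1013 at an unadjusted p under 0.05), and 0.122% were called in that of day 3 with day 1.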

How the results depend on the processing

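The log2 fold change of Tnnt1 at day 7 was positive under all 12 alternatives, and its call held under 7 of them, the mouse as a replicate block included (adjusted p = 0.0156, limma). The number of troponins called at day 7 was 0 with main transcripts (Tnnt1 adjusted p = 0.0817), 0 in 1 fit of all 18 samples (0.141), and 0 to 0 without any 1 mouse. The fits without a mouse had fewer samples. The cause of these losses was not tested. Over all days the number called was 0 to 1 without a mouse, the 1 being Tnnc2 without day 1 replicate 1. The block changed no other call of a troponin. It moved the genes called from 18 to 68 for day 3 against day 1, from 0 to 1 for day 7 against day 3, and from 230 to 328 at day 7, and left 0 at day 1. With muscle scaling, the block moved them from 22 to 122 at day 1 and from 216 to 602 at day 7. The genes called at day 7 ran from 1 to 127 without a mouse, and at day 3 from 0 to 133.

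Signs turned in the following cases. At day 1, muscle scaling gave 0.12 for Tnni2, 0.031 for Tnnc2, 0.14 for Tnnt1, 0.006 for Tnni3, and 0.088 for Tnnt2, with and without the block, and main transcripts gave −0.12 for Tnnc1. Without a mouse, day 1 ran from −0.28 to 0.21 for Tnni2, −0.39 to 0.10 for Tnnc2, and −0.083 to 0.031 for Tnnt1, day 3 from −0.28 to 0.59 for Tnni1 and −0.17 to 0.38 for Tnnt2, and day 7 from −0.065 to 0.10 for Tnni2. With main transcripts Tnnt2 was −0.40 at day 7 and −0.088 over all days.

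Main transcripts also moved levels and shares, since a gene's other transcripts are left out. The mean sham level became 0.462 TPM for Tnni1, 7.50 for Tnnt1, 5.67 for Tnni3, and 7.22 for Tnnt2, and the mean denervated level 5.25 for Tnni3 and 7.63 for Tnnt2. The difference in share between the sides became 0.047 percentage points for Tnni1 at day 1, −0.035 for Tnni3 at day 7, −0.242, 0.806, and 1.74 for Tnnt1 and −0.454, 0.248, and 0.201 for Tnnt2 at days 1, 3, and 7. An estimated 1 to 84 reads a sample stood behind Tnnc1 and 30 to 332 behind Tnni1.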
